A study of Mus musculus with 6 samples.

Results

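ABC transporters and carriers of organic solutes were examined in biliary epithelial cells (the lining of the bile ducts) from the livers of mice with and without a conditional deletion of Sox9. The members were chosen by gene symbol alone: the ABC proteins of subfamilies A to G other than Abcc3 and Abcc4, the organic anion transporting polypeptides (Slco genes), and 12 families of solute carriers for organic anions, cations, monocarboxylates, peptides, vitamins, fatty acids and nucleosides. The table of 25302 genes held 128 of them, 47 ABC genes and 81 carrier genes. The 3 Control samples carried floxed Sox9 alleles (genotype Sox9fl/fl) without Cre. The 3 Sox9cKO samples carried the same floxed alleles together with AlbCre (Sox9fl/fl:AlbCre+/-), a Cre recombinase under the albumin promoter, which is active in the lineage that gives rise to hepatocytes and biliary cells. The labels give no age or sex, and they do not say whether each sample is a single animal, so p-values measure the spread between these samples.

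ABC proteins use ATP to move lipids, conjugated metabolites and drugs across membranes. Solute carriers move their substrates down a gradient or coupled to ions. In the bile duct epithelium such proteins sit in the apical membrane, which faces bile, or in the basolateral membrane, which faces blood, and together they shape the composition of bile after it leaves the hepatocytes. A few ABC proteins do other work: ABCE and ABCF proteins act on ribosomes, and the ABCC proteins called sulfonylurea receptors are subunits of potassium channels.

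Between 11883496 and 16191990 reads were assigned to genes in a Control sample and between 12916257 and 15095616 in a Sox9cKO sample. Values below are normalized reads: gene counts scaled by a depth factor for each sample. They are listed in the order of replicates 1 to 3 within each group. Sox9 itself was at 6211, 6043 and 6293 in Control and at 3363, 3165 and 3340 in Sox9cKO, so every library followed its label, with a Sox9cKO mean of 53.2% of the Control mean (log2 fold change -0.91, SE 0.095, limma adjusted p 0.00501). Markers of bile duct cells were abundant in every sample, with Krt19 between 11480 and 26648 and Epcam between 5501 and 8249. Summed over 10 endothelial markers, however, the samples of a group differed widely, with 11517, 36804 and 1581 in Control and 29064, 37514 and 5874 in Sox9cKO. In such bulk samples, fewer cells of a type and less RNA per cell cannot be told apart. None of the 10 endothelial genes was called with limma, with or without the replicate number as a block. The sums over 10 hepatocyte markers lay between 18942 and 30050 in Control and between 26953 and 39351 in Sox9cKO, with Hp and Fgb called higher and Alb not called. The 9 macrophage and leukocyte markers in the table summed to 1069 to 1176 in Control and 1544 to 1837 in Sox9cKO, mostly from Csf1r, which was called higher, while Ptprc was at most 36.99 and Adgre1 at most 21.01 in any sample. The 6 mesothelial markers summed to 450 to 507 and 960 to 1910, mostly from Msln, which was called higher. The 10 mesenchymal markers summed to 2225 to 2938 and 2430 to 5233, and the 3 erythroid markers in the table to 13.8 to 57.5 and 6.79 to 48.2, with no gene called in either list. The 10 bile duct markers, Sox9 among them, summed to 137122, 97579 and 118266 in Control and to 113523, 84502 and 94336 in Sox9cKO, so the sum was lower in Sox9cKO for every replicate number. Of that list, Krt7 was called higher and Sox9 lower with limma. With the replicate block, 2 of the 10 bile duct markers were called higher and 4 lower. Tspan8 was added to those higher, and Spp1 and Pkhd1 were among those added to the lower. Lyz2 of the macrophage list was then also called lower. The part of these marker differences in the values of the members was not tested.

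Of the 128 members, 94 averaged 10 or more normalized reads across the samples and were tested. With limma, 8 of these 94 (8.51%) were called, meaning an adjusted p under 0.05, and in all 8 the expression was higher in Sox9cKO. Over all 17153 genes tested, 2.97% were called, 2.03% higher and 0.939% lower. The 8 members were Abcc2, Abca8a, Abcc8, Slc17a2, Slc16a6, Slc17a4, Abca8b and Slco2a1, with log2 fold changes from 3.32 down to 1.19. None of the tested members was called lower with limma. edgeR called 8 members higher and 1 lower, against 1.82% and 1.04% of all genes (2.86% in either direction). DESeq2 called 10 higher and 5 lower, against 4.21% and 2.88% of all genes (7.08%). With the replicate number as a block in limma, 15 members (16%) were called, 11 higher and 4 lower, against 5.06% and 2.99% of all genes (8.05%). With an endothelial covariate, 9 were called higher and 1 lower, against 2.54% and 1.17% of all genes (3.7%). Without replicate 3 of both groups, 2 were called higher and none lower, against 0.216% and 0.0757% of all genes (0.291%); both were among the 8. These last settings were chosen after the data were seen. Leaving out Control replicate 1, Control replicate 3 or Sox9cKO replicate 3 left 5 of the 8 called in each case. Over all genes, these fits called 200 of 17129, 210 of 17107 and 280 of 17199, against 510 of 17153 with all samples.

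**Figure D1:**
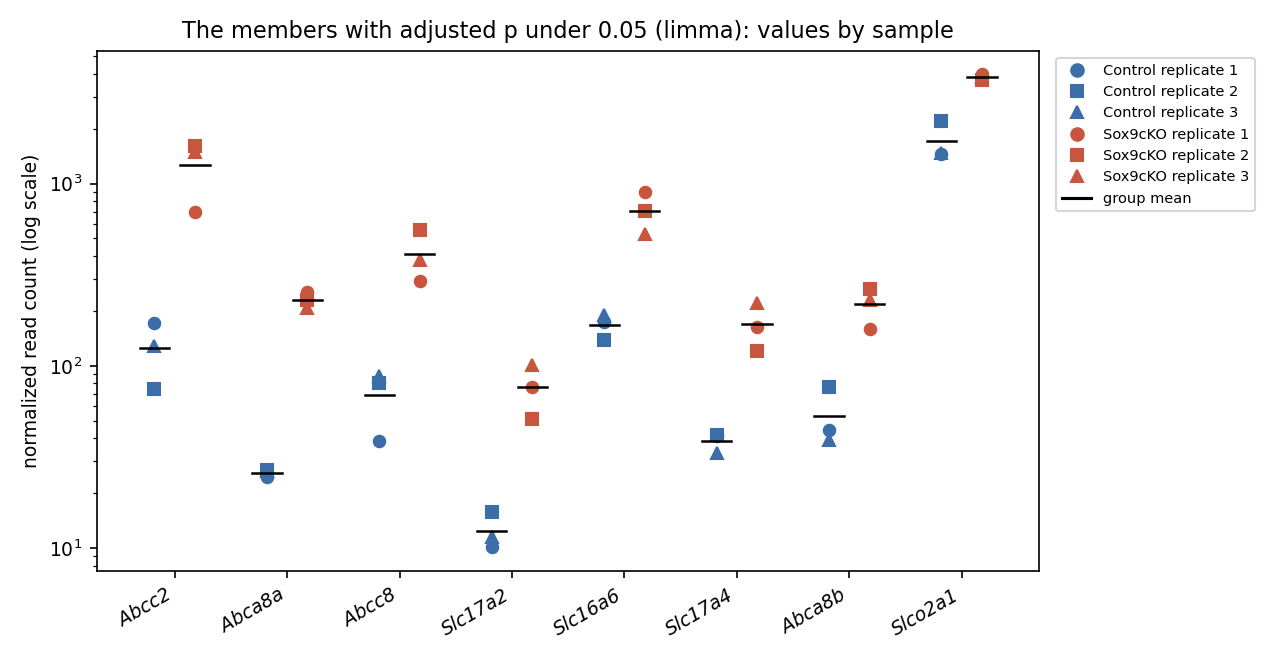
Normalized read counts on a log axis for the 8 members with an adjusted p under 0.05, with 1 point per sample and a bar at each group mean. In each gene all 3 Sox9cKO samples lie above all 3 Control samples, and the group means are farthest apart in Abcc2, whose Sox9cKO mean is 10.2 times the Control mean.

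The values of the 3 Sox9cKO samples lay above those of all 3 Control samples for 24 of the 94 tested members (25.5%) and below them for 10 (10.6%). Among all tested genes these shares were 13.4% and 10.8%. The median log2 fold change was 0.20 for the tested members and 0.036 for all tested genes, with 64.9% and 54.2% of values above 0. Members that passed the minimum only through a high value in 1 group had to differ, so these shares describe the table and are no test. As a share of a library's reads, the 128 members together took between 0.2599% and 0.261% in the Control samples and between 0.301% and 0.316% in the Sox9cKO samples. That share is weighted to the most abundant members and does not stand for each of them.

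**Figure D2:**
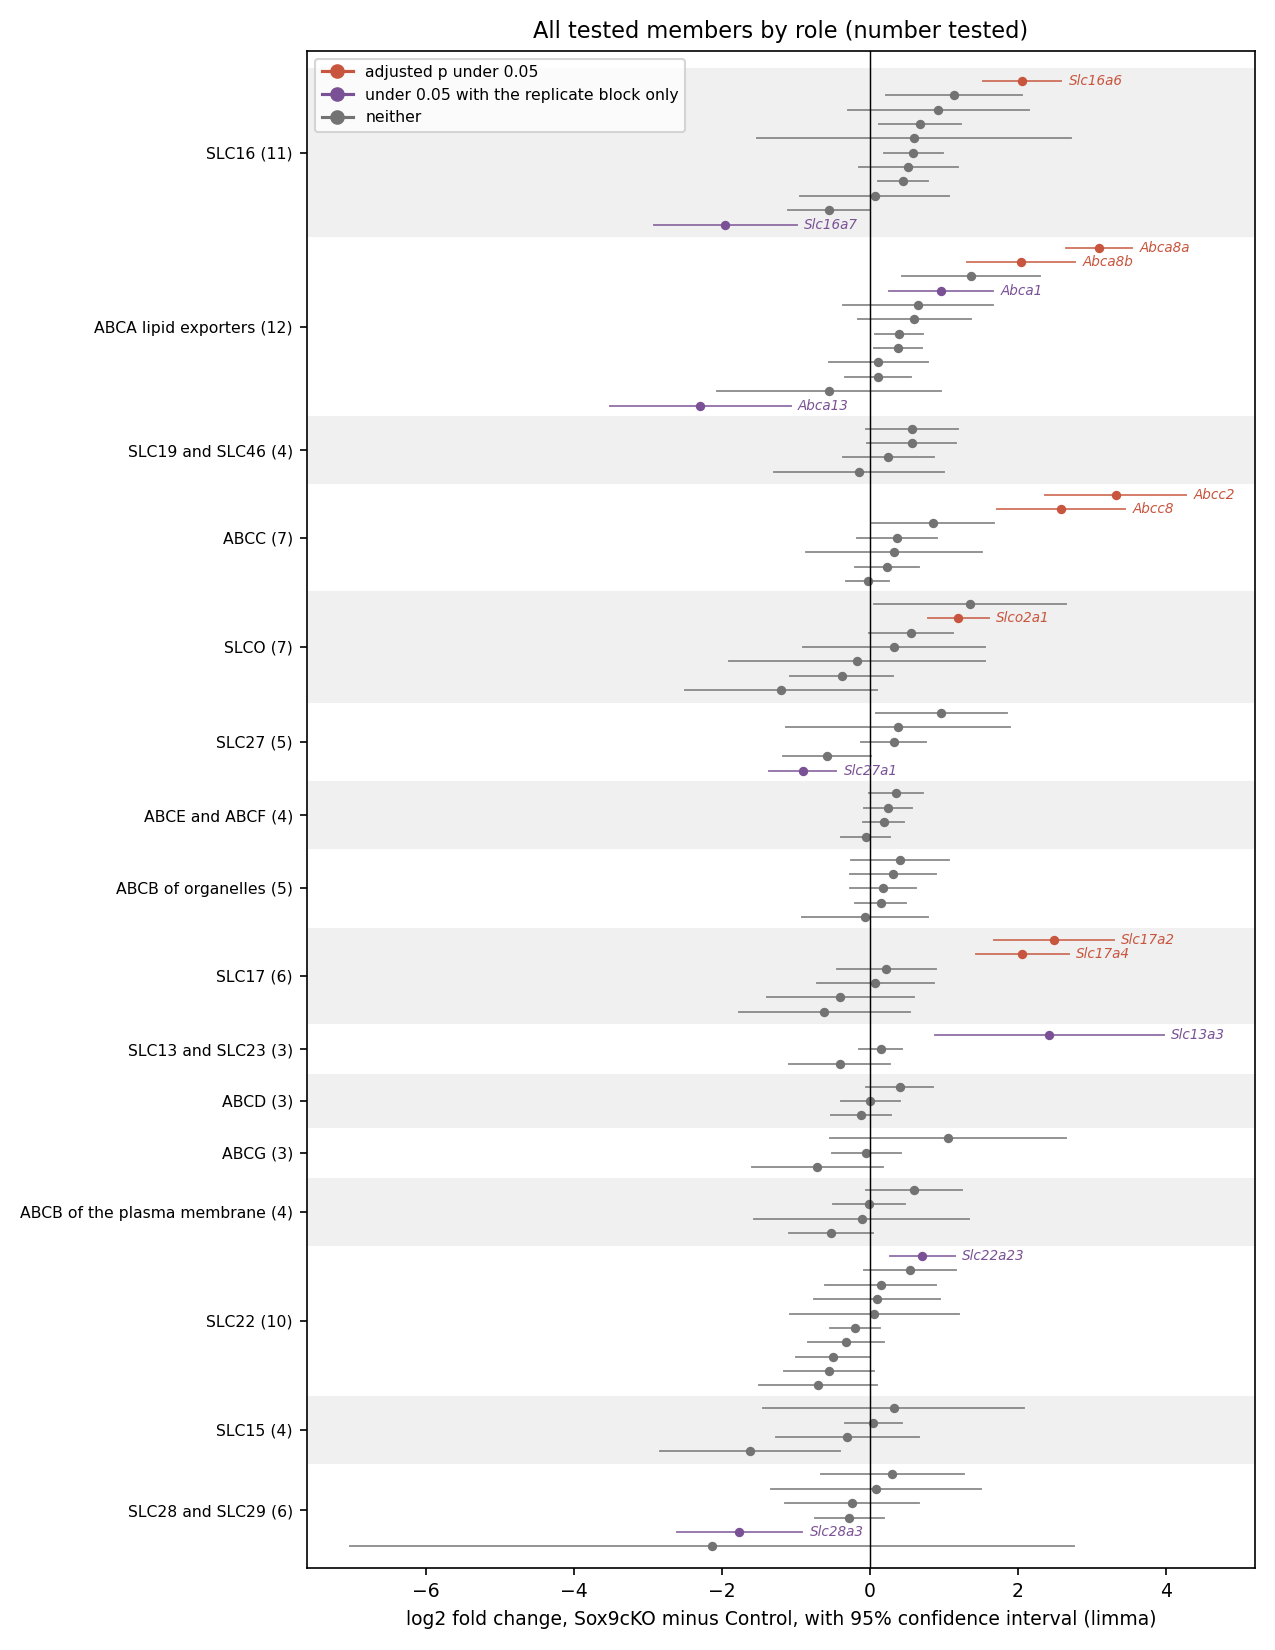
Log2 fold changes of the 94 tested members, Sox9cKO minus Control, with 95% confidence intervals from limma, grouped by role with the number tested in brackets. Called members are in red, and those that limma called with the replicate block but not without it are in purple. The intervals of the called members run from 0.79 to 4.27, while those of most others include 0.

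Among the ABCA proteins, large exporters of membrane lipids, 2 of the 12 tested genes rose, both from the ABCA8 group, which has been linked to cholesterol efflux. Abca8a (ENSMUSG00000041828) was at 24.4, 26.9 and 26.5 in Control and at 254, 229 and 207 in Sox9cKO. The Control samples lay within a narrow band and every Sox9cKO sample was far above it, with means of 25.9 ± 1.361 and 230 ± 23.3 (SD, n = 3 each). The log2 fold change of 3.10 (SE 0.19, limma adjusted p 0.00114) had the smallest p-value of any member, and the call held under all 19 alternatives tried. Abca8b (ENSMUSG00000020620) was at 44.6, 76.1 and 39.2 in Control and at 160, 264 and 231 in Sox9cKO. Again the groups did not overlap, and Control replicate 2 was the highest of its group. Its log2 fold change was 2.04 (SE 0.31, limma adjusted p 0.0183). The call on Abca8b was lost without Control replicate 1 (0.0894), Control replicate 3 (0.0682), Sox9cKO replicate 2 (0.0643) or Sox9cKO replicate 3 (0.0675), all limma adjusted p.

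Abca8a and Abca8b are related neighbours in the genome, so shared sequence between them was counted. Of all stretches of 50 bases in the annotated transcripts of Abca8a, 1.64% also occurred in another gene, Abca8b, and of those in Abca8b 1.42% occurred in Abca8a. Reads of that length can therefore tell the genes apart over most of their sequence, while the read length and the counting rule are not given in the sources used here. Both genes rose, so their promoters are shown together with those of 2 other members that rose and that the table of RefSeq promoters holds. Each runs from 250 bases before to 50 bases after the annotated start on build GRCm38.p6. Capitals mark matches, on either strand, to the core bound by Sox proteins (ACAAT) or to the AP-1 site (TGANTCA).

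Abca8a, chr11:110095888-110096187, minus strand: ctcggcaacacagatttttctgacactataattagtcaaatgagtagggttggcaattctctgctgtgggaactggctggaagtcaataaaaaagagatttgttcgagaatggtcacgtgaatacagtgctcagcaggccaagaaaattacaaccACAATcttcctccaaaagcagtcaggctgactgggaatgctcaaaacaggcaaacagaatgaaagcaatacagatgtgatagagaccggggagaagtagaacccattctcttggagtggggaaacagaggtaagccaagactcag

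Abca8b, chr11:109995796-109996095, minus strand: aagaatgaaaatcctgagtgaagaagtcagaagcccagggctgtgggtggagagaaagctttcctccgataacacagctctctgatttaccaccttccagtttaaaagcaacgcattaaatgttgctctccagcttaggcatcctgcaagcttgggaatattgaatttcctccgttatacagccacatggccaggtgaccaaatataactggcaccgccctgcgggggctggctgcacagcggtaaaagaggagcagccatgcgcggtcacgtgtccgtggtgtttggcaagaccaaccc

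Abcc2, chr19:43782058-43782357, plus strand: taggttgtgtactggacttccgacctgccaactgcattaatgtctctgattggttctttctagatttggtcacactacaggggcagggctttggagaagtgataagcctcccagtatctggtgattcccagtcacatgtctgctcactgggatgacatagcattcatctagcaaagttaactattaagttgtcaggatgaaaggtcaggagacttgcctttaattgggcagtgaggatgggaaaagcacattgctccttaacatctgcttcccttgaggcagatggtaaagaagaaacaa

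Slc17a2, chr13:23806743-23807042, plus strand: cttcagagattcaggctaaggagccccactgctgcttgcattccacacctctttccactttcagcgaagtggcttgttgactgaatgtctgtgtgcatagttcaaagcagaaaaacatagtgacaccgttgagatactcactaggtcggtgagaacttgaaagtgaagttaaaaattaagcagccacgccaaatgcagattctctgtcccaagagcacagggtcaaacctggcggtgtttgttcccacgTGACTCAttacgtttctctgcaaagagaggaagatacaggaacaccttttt

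The Abca8a window holds 1 match to ACAAT, which begins 95 bases before the start, and the Slc17a2 window holds 1 match to TGANTCA, which begins 1 base before the start. The windows of Abca8b and Abcc2 hold neither. Over 32851 RefSeq promoter windows of 300 bases, 31% hold ACAAT and 7.81% hold TGANTCA. The promoter of Slco2a1, also in the table, holds neither motif and has 64% G and C bases, against 44.3% in Abca8a, 51.3% in Abca8b, 45% in Abcc2, 46% in Slc17a2 and a median of 52.7% over all windows. Of the 8 called members, 5 had a promoter in this table. A match in letters is not a bound site.

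In RefSeq's order of protein-coding genes, 31 members sit next to another member, in 13 runs, and the longest run is Abca8b, Abca8a, Abca9, Abca6 and Abca5. All 5 had log2 fold changes above 0, in that order 2.04, 3.10, 1.37, 0.60 and 0.39, with the value largest at Abca8a and smallest at Abca5. Abca9 was low, at 8.41, 15.8 and 6.91 in Control and 27.9, 21.7 and 31.7 in Sox9cKO, and the groups did not overlap. Its change was not called, with limma adjusted p-values of 0.132 and, under the block, 0.0978. Abca6 was at 49.6, 68.7 and 77.2 against 68.6, 91.7 and 148, with overlap between the groups. For Abca5, by far the most abundant per length of the 5 in Control (67.0 normalized reads per kilobase, against 4.13 for Abca8a), the values were 720, 717 and 861 in Control and 883, 1012 and 1125 in Sox9cKO. These too did not overlap, but the change was small and not called (limma adjusted p 0.205).

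**Figure D3:**
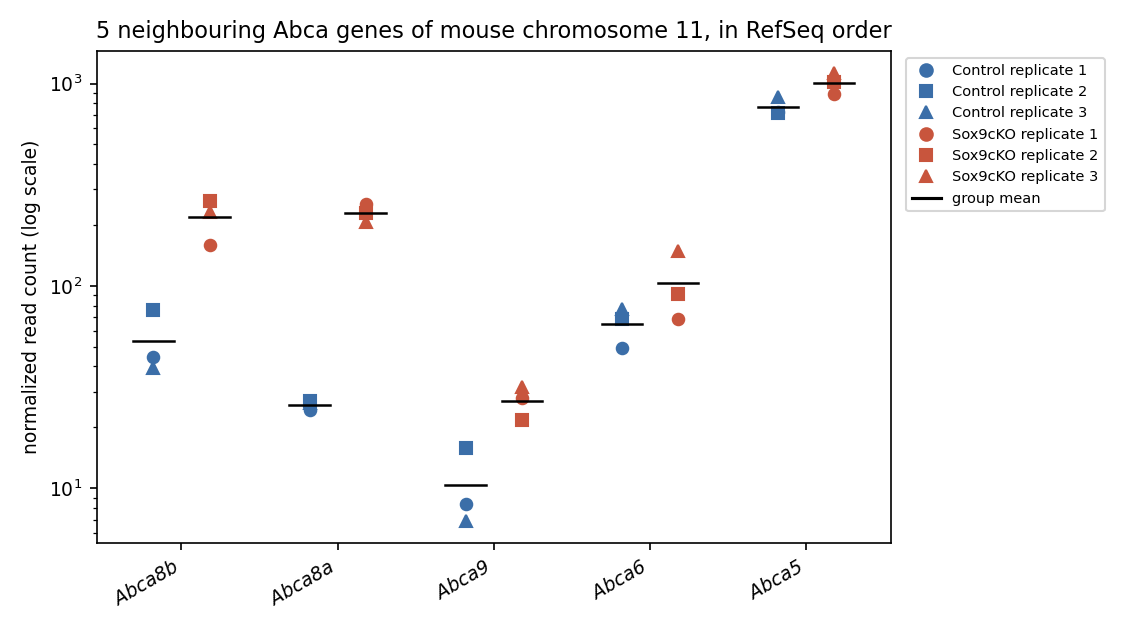
Normalized read counts on a log axis for 5 neighbouring Abca genes, in RefSeq order, with 1 point per sample and a bar at each group mean. The distance between the groups is widest at Abca8a (25.9 against 230) and narrowest at Abca5, where values are highest.

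Abca1, which loads cholesterol and phospholipids onto apolipoprotein A-I, was at 953, 1539 and 649 in Control and 2275, 1826 and 1695 in Sox9cKO. Every Sox9cKO value was above every Control value, with Control replicate 2 nearest. The log2 fold change of 0.96 (SE 0.30) was not called with limma (adjusted p 0.155) but was with the replicate block (0.0463). Abca13, a very large ABCA protein of little known function, went the other way, at 21.01, 28.8 and 29.95 in Control and 1.99, 9.45 and 4.53 in Sox9cKO. The groups did not overlap, and the log2 difference of -2.29 (SE 0.52) missed the threshold with limma (adjusted p 0.071) but not with the replicate block (0.0268). The surfactant lipid exporter Abca3 was the most abundant ABCA gene per length (299.9 and 330 normalized reads per kilobase in Control and Sox9cKO). Its values were 2934, 2686 and 2815 in Control and 4079, 2730 and 2472 in Sox9cKO, a difference of 0.10 on the log2 scale with a 95% interval from -0.34 to 0.55. The rise in its Sox9cKO mean came from replicate 1, and without that sample the difference was -0.11. Abca2, of endosomal and lysosomal membranes, was at 1150, 906 and 1218 against 1381, 1367 and 1477, without overlap and without a call (0.38, adjusted p 0.214).

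The ABCC genes held the largest rise of any tested member. Abcc2, also called Mrp2, exports bilirubin glucuronides and glutathione conjugates across the apical membrane of hepatocytes and other epithelia. It (ENSMUSG00000025194) was at 172, 74.2 and 129 in Control and at 697, 1614 and 1501 in Sox9cKO. Sox9cKO replicate 1 was the lowest of its group and still about 4 times the highest Control sample. From 125 ± 49.1 the mean rose to 1271 ± 499.8 (SD, n = 3 each), a log2 fold change of 3.32 (SE 0.41, limma adjusted p 0.00761). It was called in every alternative except the one that left out replicate 3 of both groups (0.129). Per length, Abcc2 went from 14.7 to 149 normalized reads per kilobase and so passed the means of Abcc5 in both groups (111 and 108).

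Abcc8 encodes SUR1, the sulfonylurea receptor of ATP-sensitive potassium channels, best known in pancreatic beta cells. Its values (ENSMUSG00000040136) were 38.7, 80.7 and 87.6 in Control and 291, 556 and 383 in Sox9cKO. No Control sample came near the Sox9cKO range, and in both groups replicate 1 was the lowest. The mean rose from 69.0 ± 26.5 to 410 ± 135 (SD, n = 3 each; log2 fold change 2.59, SE 0.37, limma adjusted p 0.0137). Without Sox9cKO replicate 3 the adjusted p was 0.0525. The related receptor gene Abcc9 (SUR2), typical of vascular mural cells and muscle, was at 207, 457 and 100 in Control and 350, 249 and 215 in Sox9cKO, with overlap and no call (0.33, 95% interval -0.87 to 1.52).

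The other ABCC exporters changed little or uncertainly. Abcc5, an exporter of cyclic nucleotides, was at 1210, 1261 and 1075 in Control and 1034, 1232 and 1208 in Sox9cKO, with a log2 difference of -0.03 and a 95% interval from -0.32 to 0.26. For Abcc1 (Mrp1), a basolateral exporter of glutathione conjugates, the values were 1610, 2139 and 2720 against 2111, 3059 and 3088, which overlap. Abcc6 was at 46.2, 52.0 and 24.2 against 54.7, 72.8 and 89.4, not overlapping and not called (0.85, limma adjusted p 0.265). Abcc10 differed by 0.23, and Abcc12 was too low to test. Abcc4, which is not a member, is described with the partners.

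No ABCB gene was called, with limma or with the block, in either the plasma membrane or the organelle group. Abcb1a, the drug exporter P-glycoprotein, had the highest level per length of any member (471 and 477 normalized reads per kilobase in Control and Sox9cKO). Its values were 2731, 2229 and 2779 in Control and 2398, 2008 and 3429 in Sox9cKO. The groups overlapped, and the log2 difference of -0.01 had a 95% interval from -0.50 to 0.47. Its tandem copy Abcb1b was at 150, 161 and 199 against 86.6, 126 and 147, with no overlap, a log2 difference of -0.53 and no call (limma adjusted p 0.315); 11.6% of its 50-base stretches also occur in other genes, mostly Abcb1a. The phospholipid exporter Abcb4 was low, at 33.6, 33.4 and 26.5 against 46.8, 37.8 and 60.0. Abcb11, the bile salt export pump of hepatocytes, was lower still, at 21.9, 23.2 and 9.22 against 32.8, 16.1 and 6.79. The 5 organelle genes (Abcb6 to Abcb10) had log2 differences between -0.07 and 0.41.

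Neither the sterol and drug exporters of the ABCG group nor the peroxisomal and lysosomal ABCD proteins held a call. Abcg2, an apical exporter of drugs and urate, was at 414, 293 and 296 in Control and 271, 383 and 314 in Sox9cKO, a log2 difference of -0.05 with a 95% interval from -0.52 to 0.42. Abcg1, which moves cholesterol to lipoproteins, varied within the groups far more, at 160, 343 and 53.0 against 402, 416 and 160. The sterol exporters Abcg5 and Abcg8 were too low to test, with at most 9 reads in any sample. Abcd3, the most abundant peroxisomal ABCD gene, was at 1465, 1181 and 1252 against 1588, 1069 and 1286, a difference of 0.0037 with a 95% interval from -0.40 to 0.40. The 4 ABCE and ABCF genes, which act on ribosomes, differed by -0.06 to 0.36 on the log2 scale. Abcf1 and Abce1, with Abcf2 among the most abundant members per length, were at 1639, 1453 and 1742 against 2210, 1845 and 1685 and at 1291, 1255 and 1547 against 1514, 1540 and 1575. Of the 4, only Abcf2 had groups that did not overlap, at 718, 648 and 938 against 956, 971 and 985.

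Among the 7 tested organic anion transporting polypeptides, Slco2a1 rose. It encodes the prostaglandin transporter, which takes up prostaglandins for their breakdown. Slco2a1 (ENSMUSG00000032548) was at 1452, 2207 and 1480 in Control and at 3982, 3730 and 3832 in Sox9cKO. The Sox9cKO samples were close together, and the highest Control sample, replicate 2, was well below them. With means of 1713 ± 428 and 3848 ± 126 (SD, n = 3 each), the log2 fold change was 1.19 (SE 0.17, limma adjusted p 0.0151). The call was lost, on limma adjusted p, without Control replicate 1 (0.0757), Control replicate 3 (0.0656), Sox9cKO replicate 1 (0.0563) or Sox9cKO replicate 3 (0.0583). With the mean of the endothelial markers as a covariate, an alternative chosen after the data were seen, the log2 fold change was 1.11 (limma adjusted p 0.0116).

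Slco3a1 was the other abundant gene of this group, at 1938, 1976 and 2281 in Control and 2014, 3775 and 3640 in Sox9cKO. Sox9cKO replicate 1 lay within the Control range and the other two above it, so the difference of 0.55 was not called (limma adjusted p 0.296). Slco2b1, at 10.9, 15.8 and 9.22 against 37.8, 59.5 and 13.6, also overlapped. The hepatocyte uptake carrier Slco1b2 was low in every sample, at 24.4, 25.1 and 6.91 against 23.9, 23.6 and 15.8. Slco1a1, another hepatocyte carrier, was at 3.46 to 17.6 in Control and 2.98 to 16.1 in Sox9cKO. Slco4a1 and Slco4c1 had log2 differences of -0.38 and -1.20 that were not called, and 4 further Slco genes were too low to test.

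The SLC22 family carries organic anions, organic cations and carnitine, and none of its 10 tested genes was called with limma. Slc22a23, an orphan carrier, was the most abundant per length (175 and 287 normalized reads per kilobase in Control and Sox9cKO). Its values were 1084, 943 and 1333 in Control and 1451, 1981 and 2076 in Sox9cKO. These did not overlap. The log2 difference of 0.71 was not called with limma (adjusted p 0.107) but was with the replicate block (limma adjusted p 0.0313). DESeq2, edgeR with the block and limma with the endothelial covariate also called it. The carnitine carrier Slc22a5 was at 364, 229 and 274 against 275, 198 and 216, and its neighbour Slc22a21 at 49.6, 42.7 and 33.4 against 26.9, 28.4 and 28.3. Neither was called, and 26.3% and 22% of their 50-base stretches also occur in another gene, mostly in each other. The urate carrier Slc22a12 had between 2 and 6 reads in each Control sample and none in any Sox9cKO sample, too few for a fold. Slc47a1, the only toxin extrusion gene in the table, had at most 9 reads in any sample.

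Of the monocarboxylate carriers, the SLC16 family, 1 of 11 tested genes rose. Slc16a6, or MCT7, has been linked to the export of ketone bodies. It (ENSMUSG00000041920) was at 173, 139 and 190 in Control and at 901, 705 and 530 in Sox9cKO. Even the lowest Sox9cKO sample, replicate 3, was far above the Control range, and the means were 167 ± 25.9 and 712 ± 186 (SD, n = 3 each). The log2 fold change of 2.06 (SE 0.22, limma adjusted p 0.00553) was called under all 19 alternatives. Slc16a7 (MCT2), a carrier with high affinity for pyruvate and lactate, differed the other way, at 540, 311 and 350 in Control and 144, 52.0 and 131 in Sox9cKO. No Sox9cKO sample reached the Control range, yet the spread within the groups was large, and limma gave an adjusted p of 0.0567 for the log2 difference of -1.95 (SE 0.41), or 0.00527 with the block.

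The lactate carriers of general use did not pass the test. Slc16a1 (MCT1) was at 907, 624 and 758 in Control and 1015, 1109 and 1292 in Sox9cKO, with no overlap and a log2 difference of 0.59 (limma adjusted p 0.132). Slc16a3 (MCT4), typical of glycolytic cells, was at 67.2, 61.3 and 78.3 against 144, 73.7 and 90.6. Slc16a12, a carrier of creatine and its precursor, was at 721, 491 and 399 against 851, 700.3 and 972, and the groups overlapped. Slc16a10, a carrier of aromatic amino acids, was at 1007, 681 and 969 against 516, 505 and 806, a log2 difference of -0.55 (adjusted p 0.278).

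Both called SLC17 genes belong to the branch of this family first described as sodium-phosphate carriers, whose members move urate and other organic anions. Slc17a4 (ENSMUSG00000021336) was at 41.2, 41.8 and 33.4 in Control and 164, 121 and 222 in Sox9cKO. The Control samples lay close together and the Sox9cKO samples all above, with means of 38.8 ± 4.67 and 169 ± 50.6 (SD, n = 3 each; log2 fold change 2.06, SE 0.27, limma adjusted p 0.00969). Slc17a2 (ENSMUSG00000036110) was at 10.1, 15.8 and 11.5 in Control and 76.6, 51.0 and 101 in Sox9cKO. In both genes Sox9cKO replicate 3 was the highest sample and replicate 2 the lowest of its group. The Slc17a2 mean rose from 12.5 ± 2.96 to 76.1 ± 24.9 (SD, n = 3 each; log2 fold change 2.49, SE 0.34, limma adjusted p 0.0124). On limma adjusted p, the Slc17a2 call was lost without Control replicate 1 (0.0668) or Control replicate 3 (0.0557). Slc17a3, the neighbour of Slc17a2 on chromosome 13, was too low to test, with 2.78 to 4.61 in Control and 3.78 to 12.5 in Sox9cKO. No 50-base stretch of Slc17a2 or Slc17a4 occurs in another annotated gene. The lysosomal sialic acid carrier Slc17a5, of the other branch, was at 134, 127 and 74.9 against 143, 144 and 98.5, with overlap, and the vesicular glutamate carrier genes Slc17a7 and Slc17a8 had log2 differences of -0.40 and -0.62 that were not called.

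Besides Abca13 and Slc16a7, the members called lower with the block were a nucleoside carrier and a fatty acid carrier. Slc28a3, a concentrative carrier that brings purine and pyrimidine nucleosides into cells, was at 192, 309 and 303 in Control and 130, 61.4 and 55.5 in Sox9cKO. The groups did not overlap, and replicate 1 was nearest to the other group in both. Its log2 difference of -1.76 (SE 0.36) missed the threshold with limma (adjusted p 0.0518) and was called with the block (0.0359). Slc27a1, the fatty acid transport protein FATP1, was at 1070, 695 and 735 in Control and 479, 385 and 449 in Sox9cKO. All Sox9cKO values were below all Control values, with a log2 difference of -0.91 (SE 0.19; limma adjusted p of 0.0578, and 0.0105 under the block), and edgeR called it (adjusted p 0.0480). The peptide carrier Slc15a2 (PEPT2) was at 425, 638 and 556 against 402, 83.2 and 154. Here the difference of -1.62 rested on Sox9cKO replicates 2 and 3, since replicate 1 lay just below the Control range. It was not called with limma (adjusted p 0.164) or with the block (limma adjusted p 0.0862). DESeq2 called Slc15a2 lower, and so did limma without Sox9cKO replicate 1.

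**Figure D4:**
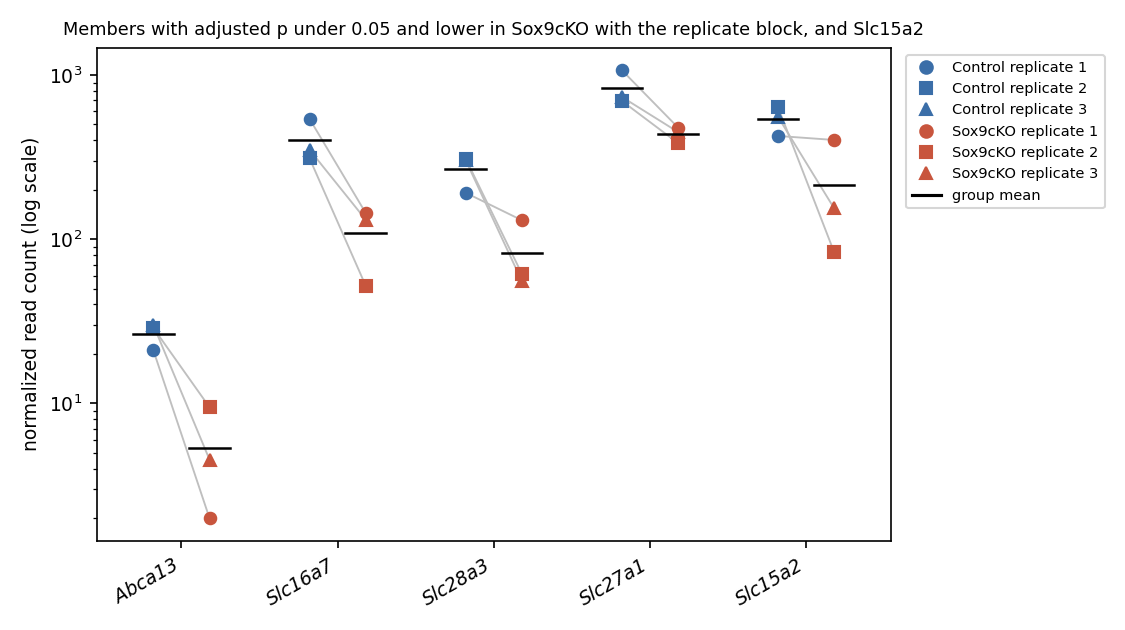
Normalized read counts on a log axis for the 4 members called lower with the replicate block and for Slc15a2, with grey lines joining samples of the same replicate number and bars at the group means. All lines slope down, steeply in Abca13, Slc16a7 and replicates 2 and 3 of Slc28a3 and Slc15a2. Replicate 1 of Slc15a2 (425 and 402) slopes almost not at all.

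Slc28a2, a purine-selective relative of Slc28a3, gave the widest spread of any tested member, at 4.203, 76.1 and 38.0 in Control and 185, 0 and 0 in Sox9cKO. Sox9cKO replicate 1 was the highest of the 6 samples, and no read was counted in the other Sox9cKO samples, so the fitted difference of -2.13 (95% interval -7.02 to 2.76) has no stable direction; with edgeR it was 0.59. Its neighbour Slc28a2b, with which it shares 35.4% of its 50-base stretches, was also highest in that sample (27.9, against at most 7.42 elsewhere). The equilibrative carrier Slc29a1 (ENT1) varied widely within both groups, at 417, 853 and 234 against 648, 750 and 205. Slc29a3, of lysosomes and mitochondria, was at 309, 236 and 263 against 188, 203 and 278.

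The remaining vitamin, dicarboxylate and fatty acid carriers held 1 gene that the block called. Slc13a3, a sodium-coupled carrier of dicarboxylates such as succinate, was at 5.04, 10.2 and 6.91 in Control and 14.9, 92.6 and 54.3 in Sox9cKO. Its groups did not overlap, but Sox9cKO replicate 1 was close to the Control range (log2 difference 2.42, SE 0.66; limma gave an adjusted p of 0.114, and 0.0214 under the block). The ascorbate carrier Slc23a2 was at 1289, 1064 and 1320 against 1338, 1283 and 1424, a log2 difference of 0.14 with a 95% interval from -0.15 to 0.44. The thiamine carrier Slc19a2 (199, 199 and 270 against 221, 390 and 404) and the folate carrier Slc46a1 (48.8, 45.5 and 38.0 against 51.7, 65.2 and 82.6) were not called. Slc27a2 (FATP2), an acyl-CoA synthetase and carrier of hepatocytes and kidney, was at 28.6, 17.6 and 17.3 against 63.7, 30.2 and 36.2, with no overlap and no call (limma adjusted p 0.241). Slc13a2os was matched by symbol prefix and is named as the antisense transcript of Slc13a2; both were too low to test, and without a stated use of strand their reads cannot be told apart.

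Several carriers known from hepatocytes were low in these samples. Abcb11, Slco1b2, Slco1a1 and Slc27a5, a set picked after their values were seen, were each under 33 normalized reads in every sample and had log2 differences between -0.18 and 0.38, with wide intervals (from -1.13 to 1.90 for Slc27a5 and from -1.91 to 1.55 for Slco1a1). The set does not stand for all carriers of hepatocytes. Slc27a2 and Slco2b1, both left out of it, were higher in Sox9cKO for every replicate number and were not called. Their log2 differences by replicate number were 1.13, 0.75 and 1.03 for Slc27a2 and 1.70, 1.85 and 0.51 for Slco2b1. Slc17a2, which was called higher, was also outside the set. The sum of the hepatocyte markers was 1.22, 1.42 and 1.92 times as high in Sox9cKO as in Control for replicate numbers 1 to 3. That sum is weighted to its most abundant genes, and 2 of its 10 markers were called higher. Abcc2 was about 4 times as high or more in every pair, and the mean of Apob, described below, was 8.15 times as high. What part hepatocyte RNA has in the Abcc2 value was not tested.

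Some members varied between samples of a group in the same order as the endothelial markers, with replicate 2 highest and replicate 3 lowest in both groups. This order held in 7 of the 94 tested members, among them Abcg1, Slc15a3, Slc16a11, Slc16a13, Slc29a1 and Slco2b1. Slc16a13, a carrier of the monocarboxylate family, varied most of the 7 in Control, at 194, 763 and 55.3 in Control and 338, 543 and 157 in Sox9cKO, so Control replicate 2 exceeded Control replicate 3 by 13.8 times. Among all 94 tested members the median ratio of the highest to the lowest Control sample was 1.53. Slc15a3, a lysosomal peptide carrier, followed the same order at 53.8, 159 and 23.04 against 83.6, 138 and 34.0. None of these 7 was called, and what part endothelial RNA has in them was not tested. Slco2a1 had this order in neither group, though replicate 2 was also its highest Control sample. The endothelial sum was 2.52, 1.02 and 3.72 times as high in Sox9cKO as in Control for replicate numbers 1 to 3. What part endothelial RNA has in the Slco2a1 values was not tested.

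**Figure D5:**
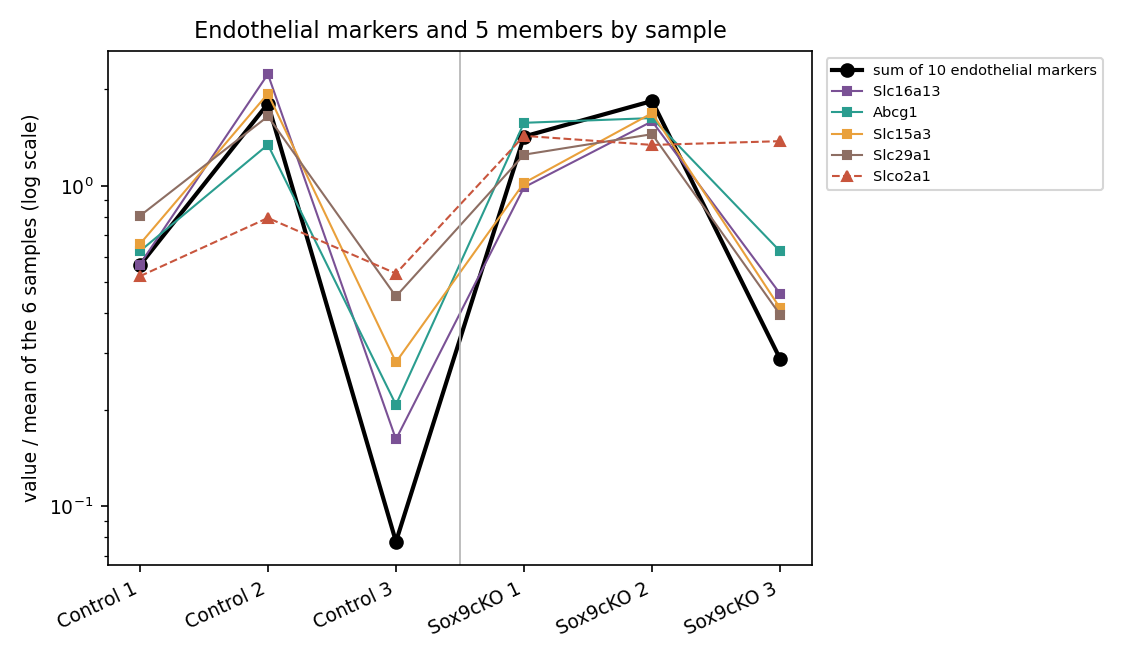
The sum of 10 endothelial markers (black) and 5 members, each divided by its own mean over the 6 samples, on a log axis. Slc16a13, Abcg1, Slc15a3 and Slc29a1 rise and fall with the black line across samples. Slco2a1 is high in all 3 Sox9cKO samples (3730 to 3982 normalized reads). The black line is also higher in Sox9cKO than in Control for every replicate number.

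The partners of these transporters, a list of 49 genes for their regulators, lipid acceptors, accessory proteins and related enzymes, were also examined. Of 46 tested, 2 were called higher and 1 lower with limma, and 5 higher and 2 lower with the block. Over all genes, 2.03% were called higher and 0.939% lower with limma, and 5.06% and 2.99% with the block. Apob, the structural protein of lipoproteins, was at 3312, 2241 and 2584 in Control and 16585, 17183 and 32564 in Sox9cKO, a log2 fold change of 2.97 (SE 0.28, limma adjusted p 0.00383). Abcc4 (Mrp4), an exporter of cyclic nucleotides and bile salts, was at 1022, 1266 and 1565 against 2250, 3024 and 3224 (1.15, SE 0.20, adjusted p 0.0305). Both had groups well apart, and so had Adk, the adenosine kinase that traps adenosine taken up by nucleoside carriers. It was lower in Sox9cKO, at 2059, 1549 and 1711 against 841, 798 and 1069 (-0.98, SE 0.16, limma adjusted p 0.0262). On limma adjusted p, the Abcc4 call was lost without Control replicate 1 (0.115), Control replicate 2 (0.0717), Sox9cKO replicate 2 (0.0946) or Sox9cKO replicate 3 (0.0918). The Adk call was lost without Control replicate 1 (0.11), Control replicate 3 (0.0902), Sox9cKO replicate 1 (0.0789) or Sox9cKO replicate 2 (0.0809). Both were also lost without the intensity trend.

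The fatty acid receptor Cd36 missed the threshold narrowly (adjusted p 0.0504), at 363, 532 and 77.2 in Control and 2166, 2149 and 2223 in Sox9cKO. With the block Cd36, Hnf4a (0.75) and Npc1 (0.64) were also called higher and the peptide transporter gene Tap1 (-0.89) lower, with limma adjusted p from 0.00931 to 0.0289. Of the 14 transcriptional regulators in the list, 13 were tested and none was called with limma. Their log2 differences ran from -0.15 for Pparg to 0.75 for Hnf4a, the only one called with the block. Basigin (Bsg), the accessory protein of MCT1 and MCT4, differed by 0.20 and was not called.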

How the data were processed

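RNA of biliary epithelial cells was sequenced after ribosomal depletion, in stranded libraries with molecular identifiers, per the labels' protocols. The deposited values are a signal made by the authors, gene counts over a factor for each sample. Dividing a column by its lowest nonzero value gave whole reads for 100% of values (tolerance 0.001 reads). DESeq2 1.36.0 and build GRCm39 are named in the submitters' processing notes. The aligner, the counter, the read length and the use of strand and molecular identifiers are not given in the sources used here. The lowest total of a gene was 10 reads.

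Values were tested as log2(value + 1), which understates changes of low genes, for genes with a mean of at least 10, with limma 3.58.1 in R 4.3.3 (intensity trend, two-sided, Benjamini-Hochberg over all genes tested, threshold 0.05). Differences are Sox9cKO minus Control. The alternatives were a replicate block, other pseudocounts, filters and scalings, no trend, edgeR 4.0.16 (quasi-likelihood) and DESeq2 1.42.0 on recovered reads, and leaving out each sample; leaving out replicate 3 of both groups and an endothelial covariate were added after the data were seen. Same-numbered samples of the titles deviated together from their group means (correlations across genes of 0.207, 0.472 and 0.542), so the numbers were taken as pairs. Samples with unlike numbers were not compared in this way, so the pairing is an assumption drawn from these same data. Replicates differed by more than counting noise, with a chi-square of at least 17.9 for each degree of freedom.

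Members and lists were chosen with earlier results of these data known. Named are Sox9, all called members, members that the block adds, the 10 most abundant per length, the 5 largest uncalled changes, called partners and markers; others were named after their values were seen, to describe each family. Lengths are merged exons of GENCODE M21 (GRCm38), found for 128 of 128 members. Scripts were tested on simulated reads. Values of some members and markers are not reported here.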

Additional observations from a re-analysis of the deposited data

How the results depend on the processing

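Each result was recomputed under 17 alternatives and 2 added after the data were seen. The call of 8 members became 15 with the replicate block, 15 with DESeq2 and 14 with edgeR and the replicate block, in each case including all 8, and 2 without replicate 3 in both groups (Abca8a and Slc16a6), where 0.291% of all genes were called. The number higher was then also 2. Members called lower, 0 in the report, numbered 4 with the replicate block, 2 with a pseudocount of 5, 2 without a filter, 3 with quantile normalization, 1 with edgeR, 5 with DESeq2, 4 with edgeR and the replicate block and 1 with the endothelial covariate. Over all genes, those called lower, 161 in the report, numbered 513, 182, 191, 203, 178, 493, 496 and 200 in the same order of settings. The genes tested numbered 17153, or 25302 without a filter and 17138 with DESeq2. Leaving out 1 sample gave 5 to 11 members, 5 to 9 higher and 0 to 2 lower. Over all genes the count of 510 became 1381 with the replicate block, 1214 with DESeq2, 1160 with edgeR and the replicate block, 50 without replicate 3 in both groups and 200 to 389 with 1 sample left out. The 3 called partners became 7 with the replicate block, with DESeq2, with edgeR and the replicate block and with the endothelial covariate, 1 without the intensity trend, and 1 to 3 with 1 sample left out. Sox9 kept its direction, at -0.909 without replicate 3 in both groups (limma adjusted p 0.0972), its only lost call, and at -0.927 to -0.883 with 1 sample left out. Fewer samples were fitted in the settings that left samples out; the cause of the other differences was not tested.

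No called member changed sign. Differences near 0 did: Abcb1a was 0.114 with the endothelial covariate and -0.226 to 0.159 with 1 sample left out (0.0329, 0.0454 and 0.0317 in the others that reversed); Abcd3 was -0.0876 with quantile normalization, -0.0282 with edgeR, -0.0227 with DESeq2, -0.0406 with edgeR and the replicate block, -0.0137 without replicate 3 in both groups and -0.0624, -0.0199 and -0.142 with 1 sample left out, within a range of -0.142 to 0.143; Abca3 was -0.113 without Sox9cKO replicate 1, within a range of -0.113 to 0.248; Slc28a2 was 0.591 with edgeR and 0.586 with DESeq2. For the members and partners, every call that the block changed is given beside the results. Genes near the minimum mean have few reads, so changes in them are detectable only when large.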
